A study of Drosophila melanogaster with 19 samples.

Results

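The 5 genes described here are bsh, Dll, CG11085, B-H1 and B-H2 of Drosophila melanogaster, which encode NK-like homeodomain proteins. They were taken by FlyBase symbol as 5 of the 17558 gene rows of a count table. The cells were optic lobe neurons, which process visual input in the fly brain, sorted from adults aged 3 to 6 days, and their RNA was sequenced. The 19 groups are 17 single cell types, sorted neurons as the control, and a line with label in both T1 and Tm1, called the mixture here. The single types are Mi1, the centrifugal C2 and C3, Tm2, Tm3, Tm5ab, Tm5c and Tm9, the T types T1, T2, T3 and T5, Dm2, Dm8 and Dm12, and Lawf1 and Lawf2. Each group has 3 libraries, 57 in all. Per the labels' protocols, a Gal4 line for each type drove UAS-Red Stinger, a red fluorescent protein of the nucleus, and fluorescent cells were sorted (FACS). The protocols name no driver line. Every group therefore carried the 2 transgenes of this system, and a type is defined by what its driver labels. For the mixture the series text names green fluorescent protein in place of Red Stinger. GEO lists 1 sample per group, so p-values measure only the spread between libraries, which may be technical.

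Homeodomain proteins bind DNA through a conserved helical domain and regulate the transcription of other genes, and many neuron types keep such factors into adult life. bsh (brain-specific homeobox) is known as a marker of Mi1, a columnar neuron of the medulla, where it is found with the TALE homeodomain factor Homothorax. Dll (Distal-less) is known for its part in leg and antenna development and is the fly relative of the vertebrate Dlx genes. B-H1 and B-H2 are the paralogous Bar genes, known from eye, sensory organ and leg development. No role is given here for CG11085, which carries a homeobox and is named by its annotation number.

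In the Ensembl annotation of build BDGP6, bsh (FBgn0000529) lies on chromosome arm 2L from 19765776 to 19769067 on the minus strand. Dll (FBgn0000157) lies on 2R from 24814822 to 24835667 on the plus strand. The other 3 lie on the plus strand of X: CG11085 (FBgn0030408) from 12616316 to 12621216, B-H2 (FBgn0004854) from 17314581 to 17324175 and B-H1 (FBgn0011758) from 17397478 to 17403278. The gap between B-H2 and B-H1 is 73302 bases and holds 0 complete protein-coding genes. No exon base of the 5 genes lies in an exon of another gene (0.0%). Reads that mapped to more than 1 place were not counted, which could lower the Bar paralogs, and these made up 7.15% to 23.3% of reads per library.

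Reads in genes ranged from 0.602 M (mega) to 72.7 M per library with a median of 21.8 M. The T2 libraries held 9.44 M, 2.53 M and 0.602 M. Their TMM scaling factors were 0.485 to 0.697, against 0.777 to 1.27 in the other groups. Levels are counts per M reads after TMM scaling (CPM), as mean ± SD with n = 3 libraries. Over the libraries of single types, the summed level of 6 neuron markers ran from 4837 to 36160 CPM and that of 8 glia markers from 85.9 to 631. Summed photoreceptor markers ran from 100.1 to 1160 and hemocyte markers from 0 to 6.40. The highest neuron, glia and photoreceptor sums were in T2, but these sums do not stand for each marker. In T2 the photoreceptor markers ninaE, Arr1, Arr2 and Hdc and the glia marker wrapper were at 0 CPM. Over the types, mean ninaE was at most 2.43 CPM (Lawf1), and the glia marker repo ran from 1.51 (Lawf1) to 10.4 (T2). What the sums say about other cells in the sorts was not tested. Type labels were checked only where a marker was listed. hth was 1495 ± 145 CPM in Mi1, but higher in Lawf1 (5019 ± 452) and also high in Lawf2 (1028 ± 43.2) and T2 (956 ± 196), so it does not single out Mi1. Gad1, the enzyme that makes GABA, was 3915 ± 418 in C2 and 13280 ± 2223 in C3. VGlut, the vesicular glutamate transporter, ranged from 2292 to 3758 CPM over Dm8, Dm12 and Tm5c. The glutamate transporter Eaat1 was 32110 ± 4546 in T1.

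bsh, Dll and CG11085 were each high in a few types and near 0 in the rest, in 3 sets of types that shared no type. bsh was high in Mi1, Dll in C3, Dm2 and C2, and CG11085 in Tm2, Tm9 and, at a lower level, Tm5ab. At a level of 5 CPM, chosen after the values were seen, 7 types held exactly 1 of the 5 genes, 10 types held none and 0 types held more than 1. The 10 were Tm3 and Tm5c, all 4 T types, Dm8 and Dm12, and both Lawf types. The count depends on this level, since bsh was at 3.13 CPM in C3 and 2.45 in C2, types that held Dll. In the tests below bsh was called higher in both. How often other genes with narrow profiles share no type was not tested. B-H1 and B-H2 stayed under 1.5 CPM in every type. In these bulk samples, fewer cells with a transcript and less of it per cell cannot be told apart.

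**Figure D1:**
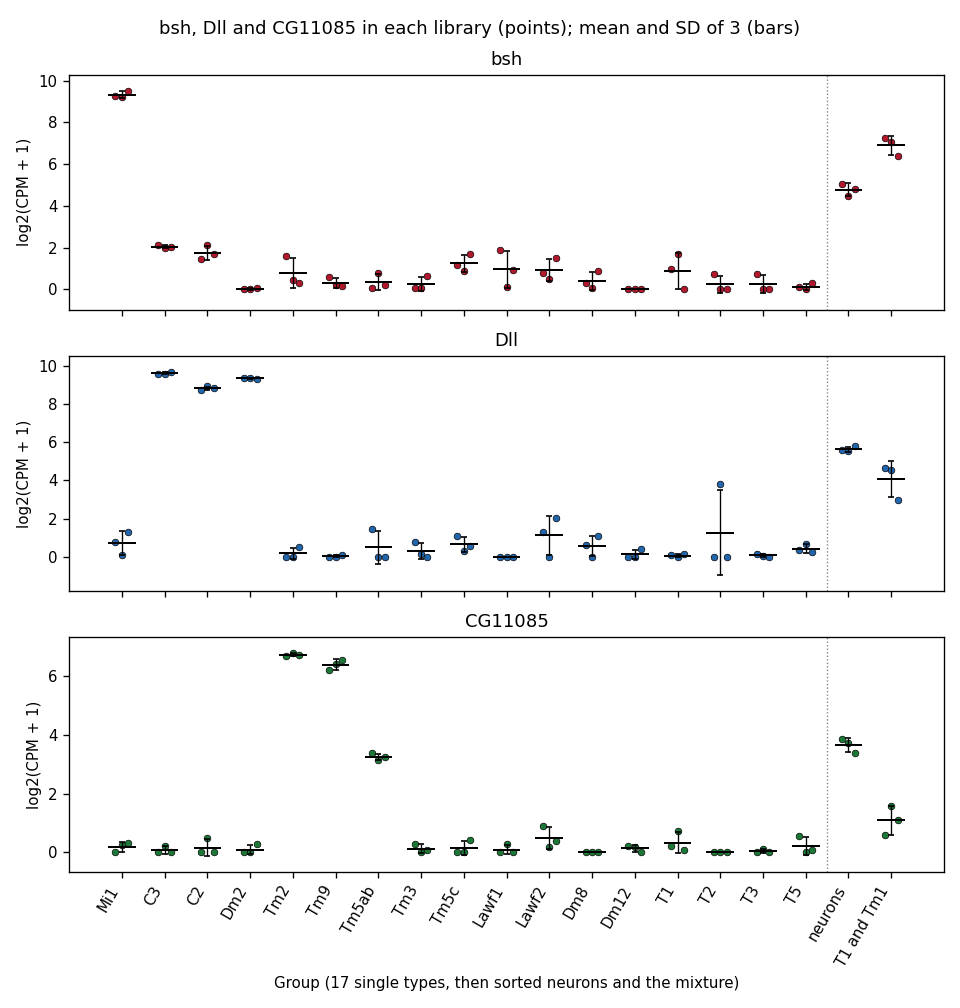
bsh, Dll and CG11085 in each of the 19 groups on a log2(CPM + 1) axis. Points are libraries, horizontal bars are means and error bars are SD (n = 3). bsh stands out in Mi1, Dll in C3, C2 and Dm2, and CG11085 in Tm2, Tm9 and Tm5ab, while sorted neurons hold all 3 at intermediate levels.

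bsh stood at 618.8, 601.4 and 727.5 CPM in the 3 Mi1 libraries (649 ± 68.3). The next type was C3, at 3.39, 2.96 and 3.05 CPM (3.13 ± 0.228), 207-fold below. All Mi1 libraries lay far above every library of the other 16 types. C2 followed at 1.72, 3.34 and 2.28 CPM (2.45 ± 0.822), overlapping C3, and each further neighbour in the order also overlapped the one above it. Below C2 the means were 1.45 in Tm5c, 1.23 in Lawf1, 1.08 in T1 and under 1 CPM in 11 types. Dm12 held no read of bsh in its 3 libraries, which allows up to 0.0426 CPM for 3 counts over the group. Such floors cover counting error only. Low counts were widespread, with a bsh read in 40 of 51 single-type libraries.

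Dll stood at 747.1, 758.3 and 803.8 CPM in C3 (769.7 ± 30.1) and at 639.8, 643.3 and 634.1 in Dm2 (639 ± 4.63). C2 libraries held 423.3, 478.6 and 445.2 CPM (449 ± 27.8). C2 and C3 are centrifugal neurons that run from the medulla to the lamina, and Dm2 is a neuron of the distal medulla. The C3 libraries lay above the Dm2 libraries, but without TMM scaling the means were 707.5 and 686.3 and the libraries overlapped, so the order of C3 and Dm2 depends on the scaling. C2 lay below both with and without it. The fourth type, T2, had 0, 12.97 and 0 CPM (4.32 ± 7.49), which is 18 reads of 1 library. Among the others, Lawf2 had 1.53 CPM, 12 types were under 1 CPM, and Lawf1 held no read, which allows up to 0.0680 CPM.

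CG11085 stood at 101.6, 109.0 and 104.8 CPM in Tm2 (105 ± 3.67). Tm9 held 72.56, 84.07 and 93.42 CPM (83.3 ± 10.4). Tm2 and Tm9 are transmedullary neurons, which connect the medulla to the lobula and are known as inputs to T5 in the pathway for light decrements. Their libraries did not overlap, although the means differed only 1.26-fold. Tm5ab was 9.73-fold below Tm9, at 9.32, 7.92 and 8.47 CPM (8.57 ± 0.703), and 19.7-fold above the next type, Lawf2, at 0.434 ± 0.391. The other Tm types were among the 14 types under 1 CPM, Tm3 at 0.0919 and Tm5c at 0.112 CPM. T2 and Dm8 held no read, which allows up to 0.470 CPM in T2 and 0.0483 in Dm8.

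B-H1 had 151 reads in all 51 single-type libraries together, found in 11 of them. Lawf1, a wide-field neuron of the lamina, was the 1 type with reads in all 3 libraries, at 1.15, 1.40 and 1.76 CPM from 18, 20 and 25 reads (1.44 ± 0.306). C2 held 0.755, 0 and 1.26 CPM, Tm5c had 18 reads and Tm3 had 9 reads in library 2. The C2 libraries overlapped those of Lawf1. Reads were 0 in 10 types, in sorted neurons and in the mixture. B-H2 had 38 reads in the single types. C2 held 28 of them, 27 in library 2, which was the C2 library with no B-H1 read. Tm5c had 6 reads of B-H2, T2 had 2, T5 and Lawf2 had 1 each and 12 types had 0. Sorted neurons held 5 reads of B-H2 (0.061 ± 0.073 CPM) and the mixture 1 read.

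**Figure D2:**
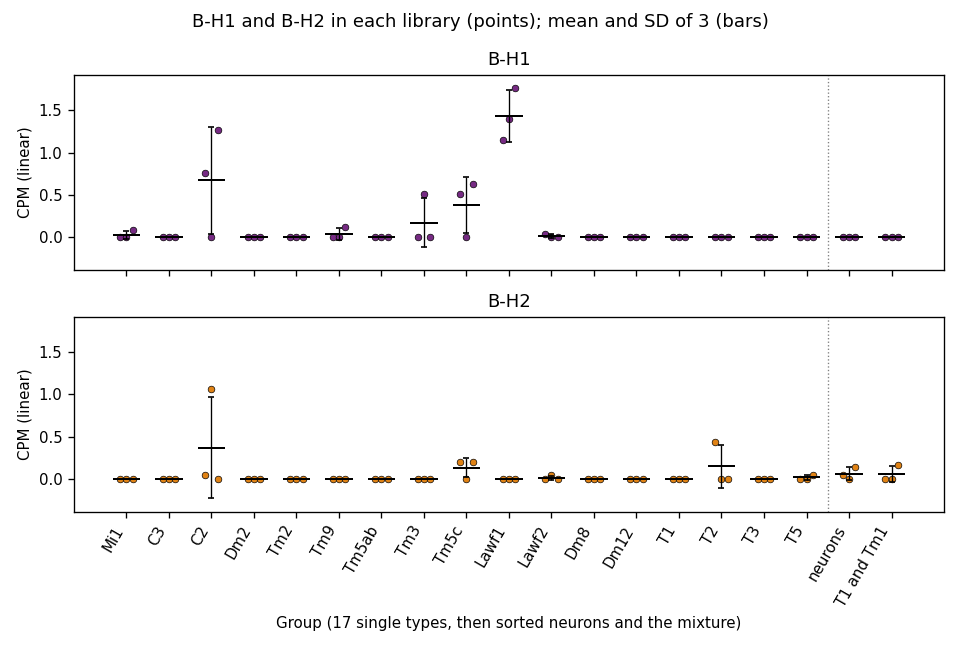
B-H1 and B-H2 in each group on a linear CPM axis, with points for libraries, bars for means and SD (n = 3). No library passes 1.76 CPM, and only Lawf1 has B-H1 above 0 in all 3 libraries.

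Levels of different genes were compared per kilobase of exon. On that scale bsh in Mi1 had the highest level, 323 CPM per kb, against 233 for Dll in C3 and 68.1 for CG11085 in Tm2. B-H1 in Lawf1 was at 0.528 CPM per kb. Across the 17 type means of log2(CPM + 1), Pearson's r was 0.03 for bsh and Dll, -0.13 for bsh and CG11085 and -0.25 for Dll and CG11085, given as a description. Spearman's rho for the same pairs was 0.20, 0.16 and -0.26, so the sign for bsh and CG11085 depends on the measure.

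The tests ran on all 12569 genes that passed a filter on low counts, which 4 of the 5 members passed (not B-H2). In edgeR's quasi-likelihood F test over the 17 types, 91.6% of all tested genes varied at an adjusted p under 0.05. bsh (adjusted p = 2.64e-21), Dll (1.62e-20), CG11085 (3.58e-20) and B-H1 (0.000711) were all among them, which is near that background. Each type was then tested against the mean of the fitted log levels of the other 16 types, with a call at adjusted p under 0.05 and a log2 fold change of at least 1. This mean is low where most types have few reads, and fitted fold changes against such types depend on the prior count and are no bound. The levels and ratios above are therefore the better measure of size. SE stands for the absolute log2 fold change divided by the square root of the F statistic of its test. It is an approximation and not a standard error reported by the fit.

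Of 68 member and type pairs, 13 were called higher, in 10 types. In these types 8.89% to 29.5% of all tested genes were called higher, so the count alone does not set the members apart. bsh was higher in Mi1 (log2 fold change 10.76, SE 0.34, adjusted p = 4.88e-26 by edgeR), where 10.4% of all tested genes were called higher. Dll was higher in C3 (10.33, SE 0.38, adjusted p = 1.31e-23), with a background of 18.2%. It was also higher in Dm2 (10.05, SE 0.38, adjusted p = 6.76e-23) with a background of 11.3%, and in C2 (9.50, SE 0.39, adjusted p = 2.77e-22) with one of 23.7%. CG11085 was higher in Tm2 (9.34, SE 0.37, adjusted p = 1.71e-23), where the background was 8.89%. In Tm9 (8.99, SE 0.37, adjusted p = 1.37e-22) the background was 9.96%, and in Tm5ab (5.50, SE 0.45, adjusted p = 3.89e-13) it was 14.7%.

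The other 6 calls were at levels of 3.13 CPM or less. bsh was called in C3 (log2 fold change 2.58, adjusted p = 0.000196) and C2 (2.21, adjusted p = 0.00138). These types lay above most others, but below the arithmetic mean of the other 16, which Mi1 raises to 41.2 CPM. The same holds for CG11085 in Tm5ab, at 8.57 CPM against an arithmetic mean of 11.9. B-H1 was called in Lawf1 (adjusted p = 9.54e-07, background 29.5%), C2 (2.55e-05), Tm5c (0.000526, background 21.2%) and Tm3 (0.0119, background 11.1%). DESeq2 gave B-H1 no call in Lawf1 (adjusted p = 0.376), C2 (0.478) or Tm5c (0.62). The Tm3 call rests on library 2, without which the log2 fold change was -1.78 (adjusted p = 1.0). The 2 calls in the lower direction were of members with no read, bsh in Dm12 (adjusted p = 0.00748, where 5.22% of tested genes were called lower) and Dll in Lawf1 (0.00976, with 7.94%), and no fold is given for them.

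C3 and C2 share a name stem and both held Dll. Dll was 769.7 ± 30.1 CPM in C3 and 449 ± 27.8 in C2, and their libraries did not overlap. The log2 difference was 0.78 (SE 0.75) with adjusted p = 0.636 in the fit of all groups, and 0.78 with adjusted p = 0.000277 in a fit of these 2 groups alone, added after seeing the data. Neither reached the fold threshold, so no call was made. In that comparison 3.77% of tested genes were called higher in C3. For bsh the log2 difference was 0.35 (adjusted p = 0.879).

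Sorted neurons held all 3 main members at levels between their extremes. bsh was 32.75, 21.37 and 26.73 CPM there (26.9 ± 5.69), or 4.15% of its Mi1 level. Dll was 46.49, 45.53 and 54.07 CPM (48.7 ± 4.68), or 6.33% of its C3 level. CG11085 was 13.46, 12.32 and 9.49 CPM (11.8 ± 2.04), or 11.2% of its Tm2 level. All 3 members lay in neurons above each type outside their own sets. The mean of fitted logs over the 17 types was lower than in neurons for bsh (log2 -5.53, adjusted p = 2.16e-14), Dll (-5.74, adjusted p = 2.3e-13) and CG11085 (-5.63, adjusted p = 1.01e-13). Of all tested genes 16.5% were lower in this contrast. Arithmetic means over the types gave another direction for bsh (38.9 CPM) and Dll (109.8 CPM), which were above neurons, and nearly the same level for CG11085 (11.7 CPM).

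In the mixture bsh stood at 150.9, 134.3 and 82.71 CPM (123 ± 35.6), 18.9% of its Mi1 level. T1 held 0.975, 2.27 and 0 CPM, so all mixture libraries lay above all T1 libraries. The log2 difference was 6.82 (SE 0.91, adjusted p = 1.42e-07 by edgeR), and 13.2% of tested genes were called higher in the mixture. Dll stood at 23.81, 22.21 and 6.79 CPM in the mixture (17.6 ± 9.40) against 3 reads in T1, with a log2 difference of 8.46 (SE 1.38, adjusted p = 6.78e-06). CG11085 was 0.510, 1.97 and 1.13 CPM against 0.285 in T1, and its log2 difference of 2.01 was not called (adjusted p = 0.108). Without T1 library 2 it was 3.58 (adjusted p = 0.0322). No sorted Tm1 group was analysed here.

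Levels of hth, Gad1 and Eaat1 in the mixture and T1 are given beside those of bsh and Dll. hth, which does not single out Mi1, was 537.4, 515.9 and 545.1 CPM in the mixture against 65.0 ± 11.9 in T1. Gad1, very high in C2 and C3, was 581.3, 588.4 and 223.3 CPM against 25.1 ± 16.2 in T1. Eaat1, very high in T1, was 4602, 3923 and 752.8 CPM in the mixture. Library 3 of the mixture was lowest in bsh, Dll, Gad1 and Eaat1, but highest in hth. The parts of Tm1 and of other labelled cells in the bsh and Dll levels cannot be told apart here and were not tested.

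**Figure D3:**
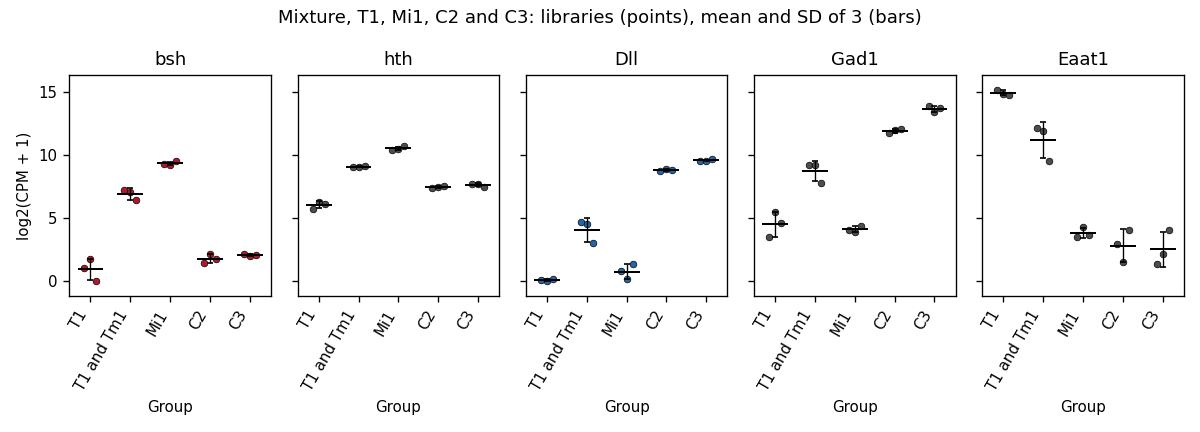
bsh, hth, Dll, Gad1 and Eaat1 in T1, the mixture, Mi1, C2 and C3 on a log2(CPM + 1) axis, with points for libraries and bars for means and SD (n = 3). The mixture lies between T1 and Mi1 for bsh and hth, and between T1 and both C types for Dll and Gad1.

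For each main member, the 3 genes with the most similar profile were found by Pearson's r over the 17 type means of log2(CPM + 1), among 6895 genes that reach 20 CPM in a type. For bsh they were fbp (r = 0.97), which encodes fructose-1,6-bisphosphatase, Ugt36E1 (r = 0.96), a UDP-glycosyltransferase gene, and DIP-zeta (r = 0.83), of the immunoglobulin superfamily. Because bsh is high in 1 type, these r values rest mainly on Mi1. Spearman's rho, which uses ranks, was 0.69, 0.42 and 0.11. fbp held 36.53, 31.08 and 47.71 CPM in Mi1 (38.4 ± 8.48) and 1.45 ± 1.39 in C3 and 1.36 ± 1.16 in C2, which did not differ beyond their spread. Ugt36E1 held 98.7 ± 9.58 CPM in Mi1 and 0.889 in Tm5c. DIP-zeta was 31.6 ± 7.88 in Mi1 and 57.9 in sorted neurons, and with log2(CPM + 0.1) it ranked 12. In the mixture fbp held 6.28, 10.76 and 5.65 CPM, 19.7% of its Mi1 level. Ugt36E1 held 27.32, 14.6 and 4.20 CPM (15.6%), with library 1 far above library 3, and DIP-zeta was at 1.83%.

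For Dll the leading genes were CG13575 (r = 0.82), asRNA:CR46082 (r = 0.82) and AdoR (r = 0.79), the adenosine receptor gene. Their Spearman's rho was 0.56, 0.57 and 0.625. CG13575 held 26.3 ± 5.70 CPM in C2, 7.11 ± 1.88 in Dm2 and 4.02 ± 1.64 in C3. AdoR held 69.2 ± 3.18 CPM in Dm2, 57.8 ± 6.41 in C2 and 9.48 in C3, with T2 at 13.0 between them. Exons of asRNA:CR46082 on the other strand cover 60.1% of the AdoR exon bases. SMART-Seq v4 and Nextera XT libraries carry no strand information, and reads over the shared bases cannot be assigned to either gene of the pair. With log2(CPM + 0.1) the 3 genes ranked 9, 11 and 13. In the mixture they stood at 0.479% (CG13575), 24.4% (asRNA:CR46082) and 28.4% (AdoR) of their highest type, against 2.29% for Dll. The order C3, Dm2, C2 of Dll is not the order of any of the 3.

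For CG11085 they were Fpgs1 (r = 0.94), a gene for folylpolyglutamate synthase, asRNA:CR45621 (r = 0.94) and CG1463 (r = 0.87). Their Spearman's rho was 0.74, 0.77 and 0.37. Fpgs1 was 591 ± 41.7 CPM in Tm2, 508 ± 57.6 in Tm9 and 75.1 ± 8.35 in Tm5ab, with 20.8 in the next type, C2. asRNA:CR45621 was 810 ± 177 CPM in Tm2, 648 ± 54.9 in Tm9 and 101.5 ± 8.15 in Tm5ab, and its exons on the other strand cover 62.7% of the Fpgs1 exon bases. Reads of that pair likewise cannot be told apart there, so their profiles are not separate evidence. CG1463 was highest in Tm9 (736 ± 140 CPM), then Tm2 (269 ± 24.6), with T2 at 112 ± 48.3 above Tm5ab at 92.9 ± 5.05. The likeness rule used no position, yet all 3 genes are close neighbours of CG11085 on X.

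The positions of genes near each member were looked up after these values were seen. Of the 4 genes on each side of CG11085, the nearest on the lower side is asRNA:CR45621 (12612108 to 12615780), 535 bases away. Fpgs1 (12611867 to 12615530) is 785 bases away and CG1463 (12609977 to 12611667) 4648 bases away. On the other side, lncRNA:CR44568 (12622212 to 12622771) is 995 bases away, with r = 0.997 at low levels of 4.61 ± 2.17 CPM in Tm2 and 4.81 ± 2.72 in Tm9. CG15728 (12624292 to 12628445) is 3075 bases away, with r = 0.83, 53.8 ± 4.62 CPM in Tm9 and 7.07 ± 1.59 in Tm2. The next genes outward were less alike, Sec16 with r = -0.06 on one side and Aven with r = 0.44 on the other. Fpgs1 lies outside the exons of CG11085, but no read positions were at hand to show where between the genes reads fell.

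bsh has fbp, its most similar gene, as its nearest neighbour, from 19761587 to 19764136 and 1639 bases away. The other 7 of the 8 genes nearest to bsh had r from -0.58 to 0.23. Of the genes nearest to Dll, CG3650, 13326 bases away, had r = 0.84, but at no more than 2.05 ± 2.07 CPM (C2). CG42851, 4714 bases away, had r = 0.74 at 0.855 ± 0.658 CPM in C2 and did not pass the filter. Over all 6750 adjacent pairs of genes that reach 20 CPM in a type, the median r was 0.23, and 12.7% of pairs had r of 0.8 or more.

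**Figure D4:**
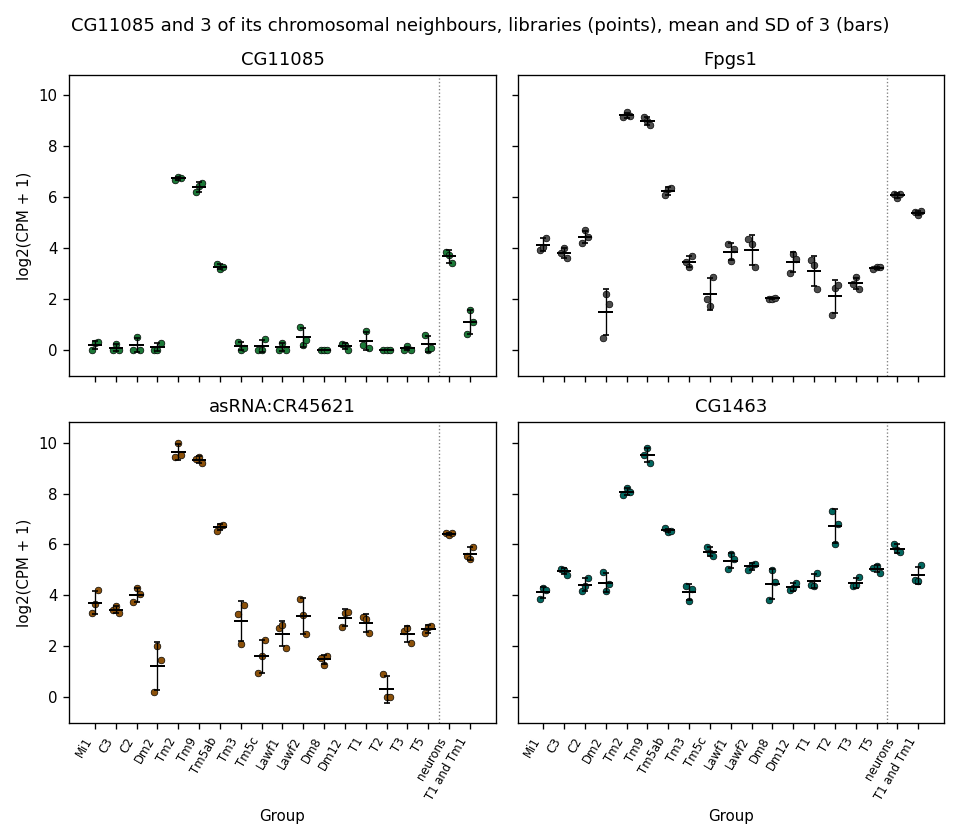
CG11085 and its neighbours Fpgs1, asRNA:CR45621 and CG1463 in each group on a log2(CPM + 1) axis, with points for libraries and bars for means and SD (n = 3). All 4 are highest in Tm2 and Tm9, and CG1463 is the 1 with Tm9 above Tm2 and a high level in T2.

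Of 18 other NK-like class homeobox genes listed, 16 were matched and 8 tested, and 6 of the 8 varied over types, where 91.6% of all tested genes did. 12 of the 16 stayed under 1 CPM in every type, and NK7.1 was the 1 gene above 100 CPM. NK7.1 was highest in T2 (267 ± 151 CPM), T3 (261 ± 29.4) and Dm8 (173 ± 20.5) and lowest in T1 (5.06 ± 1.75) and Tm5c (7.71 ± 2.72), all types with no member at 5 CPM. Of the types with a member, Dm2 held 87.2 ± 2.28 CPM of it, Mi1 57.3 ± 5.13, C3 10.5 ± 4.09 and Tm2 9.83 ± 1.08. Calls of listed genes were looked up only in the 10 types with a member called higher, so not in T2, T3 or Dm8. Among those 10, NK7.1 was called higher in Tm5ab (112 ± 6.41), Tm3 (160 ± 23.2) and Lawf1 (109 ± 2.96). In Tm5ab 5 of the 8 tested genes were called higher, where 14.7% of all tested genes were, and 0 lower, with a median log2 fold change of 2.23 against 0.14 over all tested genes. Apart from NK7.1, those were tin, slou, HGTX and CG34031, each under 1 CPM there. In C2 4 of 8 were called higher, with a background of 23.7%. These were vnd at 12.0 ± 2.88 CPM, H2.0 at 1.16 ± 0.872, HGTX at 0.926 ± 1.05 and slou at 0.429 ± 0.446. The other types with a member at 5 CPM had fewer calls. C3 had 2 higher (background 18.2%) and 1 lower, and Mi1 had 2 higher (10.4%) and 0 lower. Tm9 had 1 higher (9.96%) and 1 lower, Tm2 had 0 higher and 1 lower, and Dm2 had 0 in either direction. List medians were 0.83 in C3, -0.16 in Mi1, -0.72 in Tm9 and -1.34 in both Tm2 and Dm2.

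Dll is best known from the proximal-distal axis of appendages. Of 14 other genes of that axis listed, 13 were matched, 10 tested and 9 varied over types, near the background of 91.6%. In C3, bab1 (240 ± 19.5 CPM) and bab2 (368 ± 53.5), which encode BTB-domain factors of the distal leg, were called higher, 2 of 10, which is near the 18.2% of all tested genes called there, with 0 lower. In Dm2, 3 of 10 were called higher, with a background of 11.3%, and 2 lower. The 3 were rn, a zinc finger gene of leg development, at 374 ± 30.5 CPM, tsh at 27.0 ± 7.04 and btd at 0.558 ± 0.526, and rn was also called in Lawf1 (390 ± 33.9). In C2, 0 were called higher and 1 lower. The list medians in C3, Dm2 and C2 were -1.42, 0.00 and -0.60 on the log2 scale, against 0.17, 0.11 and 0.21 over all tested genes. In Tm9, 1 of 10, dac (391 ± 77.3), was called higher beside CG11085, with a background of 9.96%, and 2 lower. Tm2 had 0 called higher and 2 lower, and Tm5ab 0 in either direction. Mi1, the type with bsh, had 4 of 10 called higher (hth, dac, Sp1 and rn, background 10.4%) and 2 lower. Of these, dac and Sp1 were low there, at 2.18 ± 1.92 and 0.370 ± 0.216 CPM. The list median in Mi1, 1.48, was above those in C3, Dm2 and C2. Lawf1 had 4 higher (background 29.5%) and 3 lower, Tm3 had 3 (11.1%) and 0 lower, and Tm5c 1 (21.2%) and 0 lower.

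Of 11 medulla temporal and concentric factors, 10 were tested and 9 varied over types, near the background of 91.6%. In Mi1, 5 of 10 were called higher, with a background of 10.4%, and 0 lower. hth was at 1495 ± 145 CPM and the zinc finger gene erm at 249 ± 27.5. The other 3 were low, D at 9.20 ± 1.33 CPM, ey at 6.97 ± 4.75 and vvl at 2.64 ± 0.336, against 1041 ± 110 for D in Tm5c and 519 ± 170 for vvl in Tm3. The median log2 fold change over all 10 was 1.84 in Mi1, against 0.06 over all tested genes. Tm5c also had 5 of 10 called higher (background 21.2%) with 2 lower, and Tm3 had 4 of 10 (background 11.1%) with 0 lower. toy, a Pax6 gene, was called higher in C2 (820 ± 71.6 CPM) and C3 (787 ± 33.5). In C2, 3 of 10 were called higher (background 23.7%) and 3 lower, and in C3, 1 was called higher (background 18.2%) and 2 lower. In Dm2, the other type with Dll, 0 of the 10 were called higher (background 11.3%) and 3 lower. Of the types with CG11085, Tm2 had 1 of 10 called higher, erm (152 ± 58.2), with a background of 8.89%, and 2 lower. Tm9 had 1 called higher, the POU gene vvl (208 ± 59.2), with a background of 9.96%, and 2 lower. Tm5ab had 5 of 10 called higher, among them toy (1424 ± 123) and erm (956 ± 149), with a background of 14.7%, and 1 lower.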

How the data were processed

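Per the submitters' processing notes, Trimmomatic 0.32, STAR 2.5.2 and HTSeq 0.6.1 were used with build BDGP6. Per the labels' protocols, RNA came from sorted cells, cDNA from SMART-Seq v4 and libraries from Nextera XT. The values the authors deposited are raw read counts per gene, not normalized. The strand setting is not given in the sources used here. Reads that HTSeq assigned to no feature were 40.5% to 49.2% per library and were left out. With the strand setting unknown, this share does not show that these reads lay outside genes.

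Gene symbols were found for 17252 of 17558 identifiers, and coordinates came from Ensembl release 115. The fit used edgeR 4.0.16 (R 4.3.3) with filterByExpr, TMM and a robust quasi-likelihood fit with 1 coefficient per group over 57 libraries, with Benjamini-Hochberg adjustment at 0.05. The fit was run on simulated counts with known changes in Mi1 that were smaller than those of the members. That setting does not cover genes near 0 in most types and high in a few. DESeq2 1.42.0 was an alternative. Libraries of 1 sample were compared by a chi-square test of their counts. It gave 11.6 to 270.1 per degree of freedom, so no pair agreed within counting noise. Libraries prepared separately from 1 RNA would also exceed counting noise, so the test does not show that libraries are independent samples. Each library was used as a unit. Other steps used Python 3.11.15.

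The members and lists were chosen with earlier results of these data known. Every member is given in every group, by value or range. The text names the 3 genes most like each member that reaches 10 CPM, and gives list values only for genes above 100 CPM in a type where a member is called higher. Outside this rule, the neighbours on the chromosome, NK7.1 in other types, list genes under 100 CPM and the label markers were chosen after their values were seen. Genes whose symbols were not matched (scro, Hhex and ap) were not analysed here.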

Additional observations from a re-analysis of the deposited data

How the results depend on the processing

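The alternatives were DESeq2, its size factors in edgeR, no filter on low counts, no robust fit, no T2 libraries, another pseudocount, levels without TMM and each library left out, with fits of 2 groups alone and one without T2 library 2 added after seeing the data. When libraries were left out, the dispersion trend of the full fit was held. Over these, 818 of the recomputed values kept their direction and side of the threshold, or stayed within the tolerance. Of the rest, 13 were labelled moved, 4 weaker, 1 stronger and 1 reversed. Many of the values come from leave-out fits that share most libraries, so they are not independent checks. The calls of bsh, Dll and CG11085 held in all alternatives, apart from the mixture contrast of CG11085. With libraries of T1 or the mixture left out, that log2 difference ran from 1.26 to 3.58, and it was called without T1 library 2. Under DESeq2, B-H1 had no call in C2 (4.78), Lawf1 (5.87) or Tm5c (3.82) nor in the F test (adjusted p = 1.0), and DESeq2 gave no adjusted p in Tm3. With Tm3 libraries left out, the B-H1 log2 fold change there ran from -1.78 to 3.69. With no filter, B-H2 passed the F test (adjusted p = 0.00788).

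Counts of genes called moved by over 1.5 times under DESeq2: 1286 higher in C3, 815 in Dm2, 819 in Mi1, 863 in Tm3, 1058 in Tm5ab, 1551 in Tm5c and 600 in Tm9, 1107 lower in Dm12 and 1373 lower in types than in neurons. The edgeR counts were 2292, 1421, 1311, 1399, 1848, 2664, 1252, 656 and 2068. With no filter the Mi1 count was 2087, where more genes were tested. Without TMM, Dll was 707.5 CPM in C3 and 686.3 in Dm2, and CG11085 was 112 in Tm2. The cause of the other shifts was not tested. T2 depth limits low levels most, with a floor of 0.470 CPM. No paired analysis was possible because the labels do not pair libraries across groups.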
